A study of Homo sapiens with 12 samples.

Results

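CISH and SOCS1 to SOCS7 form the family of feedback inhibitors that hold down signalling from cytokine receptors, and their 8 genes were read here in cells given prolactin (PRL) for 2 h. The genes were taken by name and matched to their Ensembl identifiers, 8 of the 62702 genes with values in the count table, and all 8 passed the filter on low counts. They were measured by polyA-selected RNA sequencing in MCF10AT, an established line of human breast epithelial cells derived from MCF10A by transformation with Ras. All cells carried the long form of the human prolactin receptor, hPRLrL, together with the intermediate form, hPRLrI. The genotype hPRLrL/hPRLrI is called intact here, and the genotype hPRLrL/hPRLrI I-tail deleted, in which the intermediate form lacks its I-tail, is called deleted. Each genotype was read untreated and after 250 ng/ml PRL, in both cases in cells starved of serum for 24 h, with 3 libraries in each of the 4 groups. The labels call the treated samples biological replicates and do not name separate cultures or clones, so the p-values measure the spread between these libraries. The labels do not say how the receptors were introduced, at what level each form is present, or whether a genotype is 1 clone. The stated aim was to examine the part of the I-tail in breast cancer, which these comparisons address through the response to PRL, the effect of the deletion, and the difference in response between genotypes.

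Prolactin binding activates the kinase JAK2 at the receptor, JAK2 phosphorylates the receptor and the transcription factor STAT5, and STAT5 enters the nucleus and switches on target genes. CISH and SOCS2 are classic STAT5 targets, while SOCS1 is best known as an interferon target and SOCS3 as a target of STAT3. Each of the 8 proteins has an SH2 domain, which binds phosphorylated tyrosines, and a SOCS box, which recruits elongins B and C and a cullin to tag bound proteins with ubiquitin. SOCS1 and SOCS3 also inhibit JAK kinases directly through a kinase inhibitory region, and CISH occupies receptor sites where STAT5 would dock. SOCS4 and SOCS5 are known for acting on the EGF receptor, and SOCS6 and SOCS7 for binding components of insulin signalling.

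The STAT5 motif TTCNNNGAA, which reads the same on both strands, was looked for in the 250 bases before each start site in RefSeq (GRCh38.p14), where 5 of the 8 genes had a window. The CISH window held 4 matches. None was found in the windows of SOCS1, SOCS3 (at either of its RefSeq starts), SOCS4 or SOCS6. SOCS2, SOCS5 and SOCS7 were not examined. The SOCS3 windows, chr17:78360926-78361175 and chr17:78359668-78359917, leave out the bases just before its GENCODE start at 78360077. The motif was therefore not looked for there, and the SOCS3 stretch printed below does not cover those bases. A window of the neighbouring noncoding gene SOCS3-DT held 1 match, whose place relative to SOCS3 was not examined. Among other genes named further below, the windows of JUN, IRS2 and SOWAHC, which rose with PRL, held 0 matches. Those of LBH and IL4R, which were not called, also held 0, and a window of BCL6, which fell, held 1. Whether matches go with the response to PRL was not tested. Of 35116 promoter windows of that length, 6.57% held at least 1 match and 0.0142%, which is 5 windows, held 4 or more. Positions in CISH were counted from its RefSeq start at 50611774. The matches were TTCCTGGAA at −241 to −233, TTCTTGGAA at −230 to −222, TTCTAGGAA at −129 to −121 and TTCCGGGAA at −112 to −104. The stretches below are shown because CISH had the widest difference with PRL of the 8 genes and SOCS1 and SOCS3 are the family's best-known inducible members. All lie on the minus strand and are written 5′ to 3′ with the matches in capitals. The CISH stretch is chr3:50611832-50612024, that of SOCS1 is chr16:11256205-11256454 and that of SOCS3 is chr17:78360926-78361175. The CISH stretch holds 193 of the 250 bases, as it stops before the GENCODE start at 50611831. The positions above therefore do not count from its last printed base. A match describes the letters in the window and not binding of STAT5 there.
CISH: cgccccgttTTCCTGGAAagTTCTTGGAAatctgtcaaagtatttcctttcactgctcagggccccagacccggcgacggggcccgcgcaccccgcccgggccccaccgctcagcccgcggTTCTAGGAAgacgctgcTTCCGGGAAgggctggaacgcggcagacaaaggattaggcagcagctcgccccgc
SOCS1: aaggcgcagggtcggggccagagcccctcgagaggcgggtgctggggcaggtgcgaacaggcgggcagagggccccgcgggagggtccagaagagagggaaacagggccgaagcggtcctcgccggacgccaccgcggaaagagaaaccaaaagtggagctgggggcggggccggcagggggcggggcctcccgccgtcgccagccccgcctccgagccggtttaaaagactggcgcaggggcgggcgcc
SOCS3: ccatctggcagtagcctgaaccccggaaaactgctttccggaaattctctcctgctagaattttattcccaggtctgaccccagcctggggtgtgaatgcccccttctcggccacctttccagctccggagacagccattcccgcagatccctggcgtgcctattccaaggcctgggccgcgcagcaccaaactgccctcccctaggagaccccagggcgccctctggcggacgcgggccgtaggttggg

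The 12 libraries held between 36120808 and 57324865 counts assigned to genes. Levels are given as CPM, the usual depth-scaled read count, with library sizes scaled by TMM, and differences as log2 fold changes with their standard errors (SE). A change was called at an adjusted p under 0.05 over all 17677 genes tested in edgeR's quasi-likelihood F test. The 10 epithelial markers examined were detected in all 12 libraries, at unlike levels. KRT5, a basal keratin, was at 310 to 3331 CPM, CDH1 at 9.89 to 68.7 CPM and EPCAM at 1.16 to 5.33 CPM. Of the leukocyte markers, PTPRC and CD3E were at 0 in 11 of 12 libraries, while CD14 was at 10.7 to 30.3 CPM. The summed level of the leukocyte markers was 11.1 to 21.0 CPM in untreated and 18.2 to 30.9 CPM in treated libraries, and its part in the results was not tested. The fibroblast markers summed to 423 to 617 CPM and the endothelial markers to 1.14 to 3.09 CPM. Within the fibroblast list DCN was at 212 to 472 CPM and COL1A1 at 97.1 to 238 CPM, while PDGFRB was at 11.25 to 27.4 CPM and COL3A1 at 0.0897 to 2.63 CPM. Fewer cells of a type and less RNA per cell cannot be told apart in such bulk samples.

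CISH, which competes with STAT5 for the phosphorylated receptor, was the member with the widest response. It lies at chr3:50606490-50611831 on the minus strand (ENSG00000114737, GENCODE 29 on GRCh38). In the intact untreated libraries 1 to 3 it was at 3.18, 3.34 and 4.96 CPM, and in the intact PRL libraries at 54.3, 56.4 and 70.7 CPM. The deleted untreated libraries were at 3.25, 5.18 and 5.27 CPM and the deleted PRL libraries at 56.7, 55.0 and 66.3 CPM. Every treated library thus lay far above every untreated one, and the genotypes overlapped under each treatment. These levels rest on 121 to 286 counts per library without PRL and 1888 to 2902 with it. Averaged over both genotypes, CISH rose by 3.84 ± 0.18 on the log2 scale (SE), a 14.3-fold rise with a 95% interval of 10.98 to 18.6 and an adjusted p of 1.45e-07. It rose by 3.98 ± 0.25 in intact cells (95% interval 3.43 to 4.52, adjusted p = 8.80e-06) and by 3.70 ± 0.25 in deleted cells (3.16 to 4.24, adjusted p = 1.84e-05).

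SOCS2, a STAT5 target known for restraining growth hormone signalling, was the other member that rose. It lies at chr12:93569814-93583487 on the plus strand (ENSG00000120833). Without PRL it was at 4.61, 2.65 and 4.32 CPM in the intact libraries and at 5.38, 3.36 and 5.88 CPM in the deleted libraries. With PRL it was at 17.7, 11.2 and 12.8 CPM in the intact libraries and at 16.7, 14.3 and 16.6 CPM in the deleted libraries. The lowest treated library thus stood above the highest untreated one. Averaged over both genotypes, SOCS2 rose by 1.78 ± 0.20 on the log2 scale (SE), or 3.42-fold (95% interval 2.55 to 4.60, adjusted p = 0.00213). Within a genotype the difference was of like size but missed the threshold, at 1.85 ± 0.28 in intact cells (95% interval 1.24 to 2.45, adjusted p = 0.0668) and 1.71 ± 0.28 in deleted cells (1.11 to 2.30, adjusted p = 0.139). The call depended on the fit. Both pairs passed in DESeq2, with adjusted p-values of 2.85e-08 and 1.32e-06. They also passed in edgeR with a term for the title runs described further below, at 7.15e-05 and 1.09e-04. Both missed in limma-voom, at 0.0508 and 0.0600, and in edgeR with library size alone, at 0.585 and 0.932. In edgeR with RLE scaling the intact pair passed, at 0.0332, and the deleted pair missed, at 0.0716.

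Thus 2 of the 8 genes rose, 0 fell and 6 did not pass the test for the averaged effect, where 21 of all 17677 genes (0.119%) were called. The treated and untreated levels of CISH and of SOCS2 did not overlap, with the 6 treated libraries above the 6 untreated ones, which held for 0.441% of all genes. In the intact cells 1 member (CISH) was called, beside 0.017% of all genes, and the 3 PRL libraries lay above the 3 untreated ones for CISH and SOCS2, as for 2.61% of all genes. In the deleted cells 1 member (CISH) was called, again beside 0.017% of all genes, and the same separation held for CISH and SOCS2, as for 3.29% of all genes. The median log2 difference of the 8 genes was 0.15, with 5 of 8 above 0, and that of all genes tested was −0.02.

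**Figure D1:**
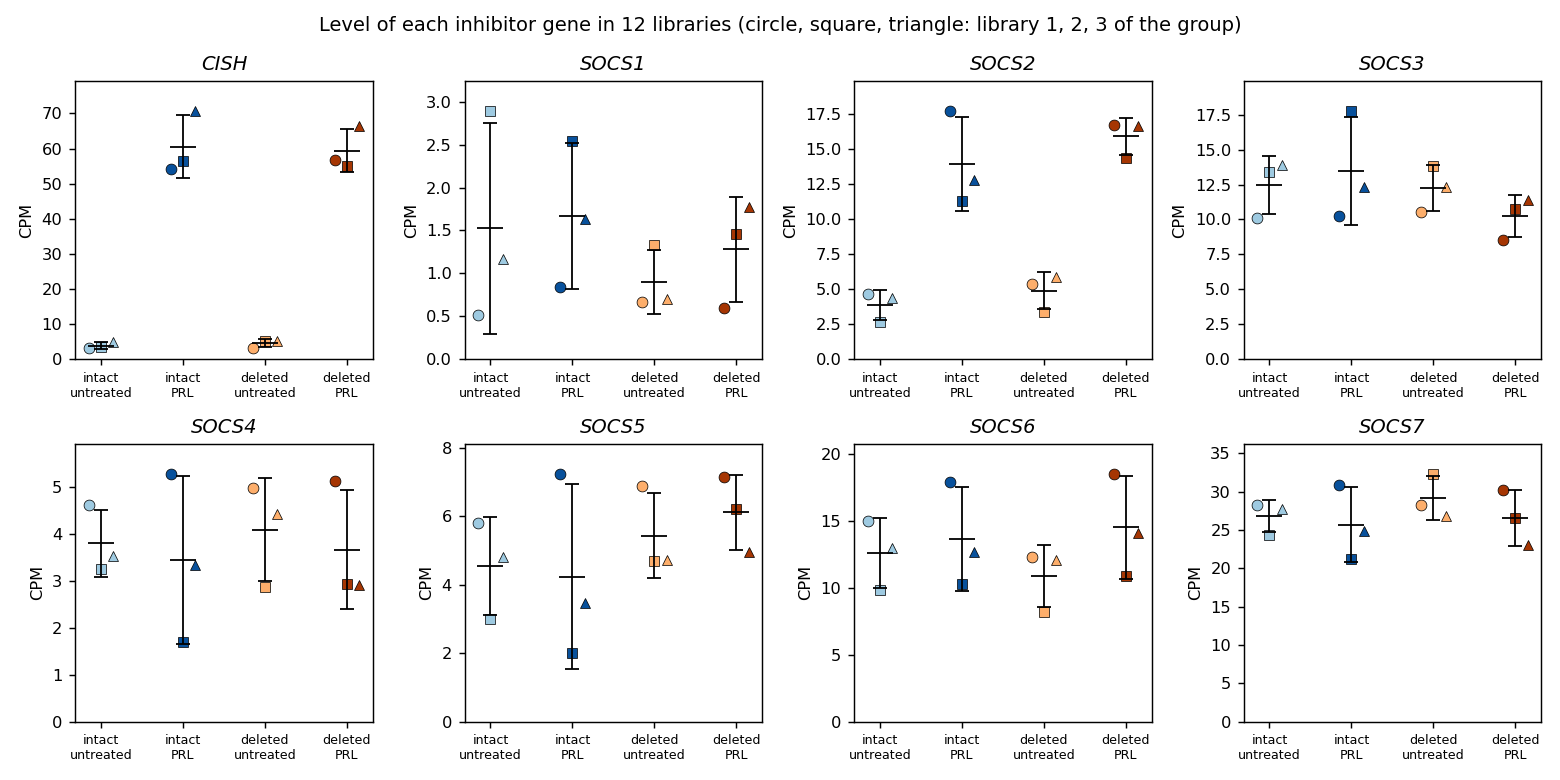
Level of each of the 8 genes in CPM (y axis, linear, its own scale in each panel) in the 4 groups. Each point is 1 library, each horizontal tick the mean of the 3 libraries and each vertical bar their SD. CISH and SOCS2 separate into low untreated and high PRL levels in both genotypes, while the groups overlap in the other panels.

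SOCS1, an inhibitor of JAK kinases, was the least counted member, at 22 to 105 counts per library. It lies at chr16:11254405-11256200 on the minus strand (ENSG00000185338). Its untreated levels were 0.510, 2.90 and 1.16 CPM in intact and 0.669, 1.33 and 0.704 CPM in deleted libraries. Its levels with PRL were 0.842, 2.54 and 1.63 CPM in intact and 0.600, 1.46 and 1.78 CPM in deleted libraries. The treated and untreated libraries overlapped in both genotypes, and the intact untreated libraries spanned the whole range of the 12. The averaged log2 difference with PRL was 0.32 ± 0.43 (SE), with a 95% interval of −0.60 to 1.24, the widest of the 8 genes for this effect.

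SOCS3, the brake on receptors of the IL-6 family, lies at chr17:78356778-78360077 on the minus strand (ENSG00000184557). It was at 10.1, 13.4 and 13.9 CPM in intact untreated and at 10.3, 17.8 and 12.3 CPM in intact PRL libraries. In the deleted cells it was at 10.5, 13.8 and 12.3 CPM untreated and 8.56, 10.8 and 11.4 CPM with PRL. The groups overlapped in both genotypes. The averaged difference with PRL was −0.07 ± 0.17 (SE), with a 95% interval of −0.43 to 0.28. It was 0.11 ± 0.23 in intact and −0.26 ± 0.23 in deleted cells, and the difference between these, −0.36 ± 0.33, did not pass the test (adjusted p = 0.99999). The upper limit of the averaged interval for SOCS3 lies below the lower limits for SOCS2 (1.35) and CISH (3.46).

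SOCS4 and SOCS5, the pair linked to the EGF receptor, were at 1.70 to 5.29 CPM and 2.00 to 7.25 CPM over all libraries. SOCS4 lies at chr14:55027230-55049488 (ENSG00000180008) and SOCS5 at chr2:46698952-46780245 (ENSG00000171150), both on the plus strand. The lowest value of both genes came from the intact PRL library 2, which had 19073 detected genes against 19905 to 25200 in the others. The averaged difference with PRL was −0.15 ± 0.27 for SOCS4 (95% interval −0.73 to 0.43) and 0.04 ± 0.28 for SOCS5 (−0.57 to 0.64).

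SOCS6 and SOCS7, the pair linked to insulin receptor signalling, were at 8.18 to 18.5 CPM and 21.2 to 32.4 CPM. SOCS6 lies at chr18:70288901-70330200 (ENSG00000170677) and SOCS7 at chr17:38352228-38405593 (ENSG00000274211), both on the plus strand. SOCS6 averaged 12.6 ± 2.61 CPM (SD, n = 3) in intact untreated, 13.6 ± 3.90 in intact PRL, 10.9 ± 2.33 in deleted untreated and 14.5 ± 3.83 in deleted PRL libraries. SOCS7, at 26.8 ± 2.09, 25.7 ± 4.88, 29.2 ± 2.86 and 26.6 ± 3.60 CPM in the same order, had the narrowest interval of the 8. The averaged difference with PRL was 0.27 ± 0.19 for SOCS6 (95% interval −0.15 to 0.68) and −0.10 ± 0.13 for SOCS7 (−0.37 to 0.18). All 6 members that were not called had adjusted p-values of 0.98 to 0.991.

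**Figure D2:**
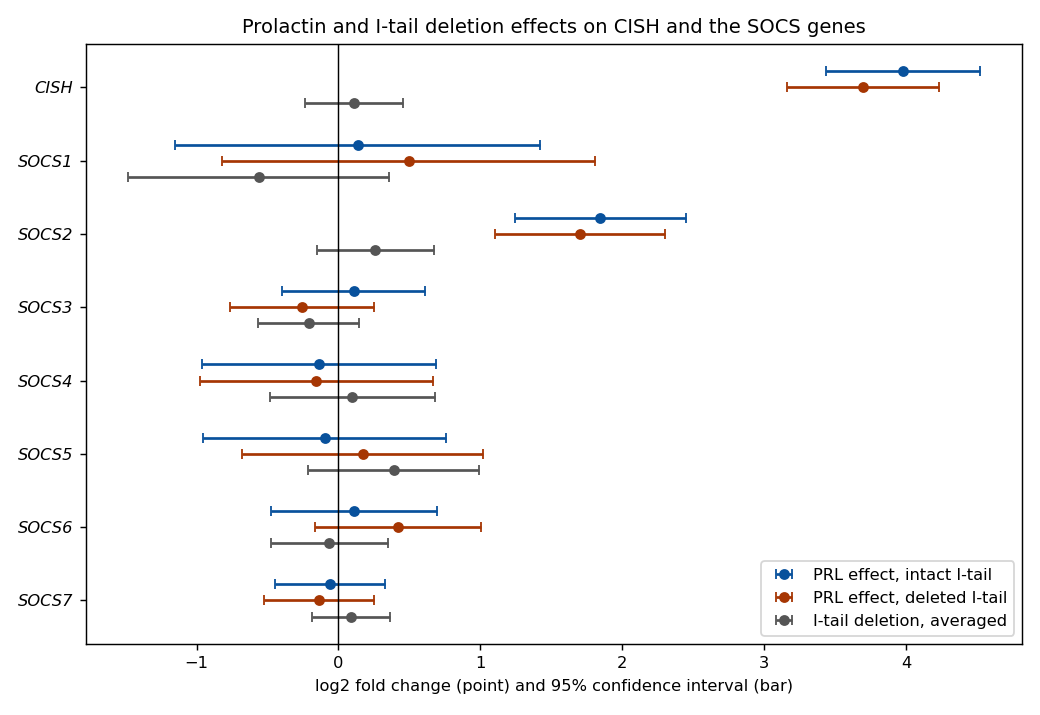
Log2 fold change (x axis) of each gene for PRL in intact cells, PRL in deleted cells and I-tail deletion averaged over both treatments; points are edgeR estimates and bars their 95% confidence intervals. CISH lies near 4 and SOCS2 near 2 for PRL in both genotypes, and every other interval spans 0.

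The order of the 8 genes was compared per kb of exon, since longer transcripts give more counts. This length counts the exons of all isoforms, so the level, order and share of a gene expressed from short isoforms are understated. For CISH it is 5112 bases, nearly the whole gene at chr3:50606490-50611831, against 1796 for SOCS1 and 2734 for SOCS3. In intact untreated cells SOCS3 stood highest at 4.56 ± 0.764 CPM per kb (SD, n = 3), above SOCS7 at 3.10 ± 0.242 and SOCS6 at 2.11 ± 0.436, with no overlap between these neighbours. SOCS1, CISH, SOCS5, SOCS2 and SOCS4 followed at means of 0.848 to 0.540 CPM per kb, each overlapping the next in the order. The deleted untreated cells had the same leading trio, at 4.48, 3.38 and 1.81 CPM per kb, and the other 5 genes again overlapped their neighbours, at 0.893 to 0.502. With PRL, CISH moved to the top, at 11.8 ± 1.75 CPM per kb in intact and 11.6 ± 1.20 in deleted cells, without overlap with SOCS3 at 4.92 ± 1.42 and 3.75 ± 0.549. SOCS2 reached 2.05 ± 0.499 and 2.34 ± 0.197 CPM per kb with PRL, a level that overlapped SOCS6 and lay above SOCS1, SOCS4 and SOCS5.

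Added over the 8 genes, the level was 13.1 ± 0.711 CPM per kb in intact untreated and 26.0 ± 0.928 in intact PRL libraries (SD, n = 3). In deleted cells it was 13.1 ± 0.431 untreated and 25.2 ± 1.46 with PRL. CISH made up 5.68 ± 1.15% of the sum in intact untreated and 45.3 ± 5.14% in intact PRL libraries, and 6.79 ± 1.52% and 45.9 ± 2.44% in deleted ones. The SOCS3 share was 34.8% and 19.0% in intact cells and 34.1% and 14.9% in deleted cells, beside CPM levels that overlapped. The sum holds CISH and SOCS2, so it is a description and carries no test.

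**Figure D3:**
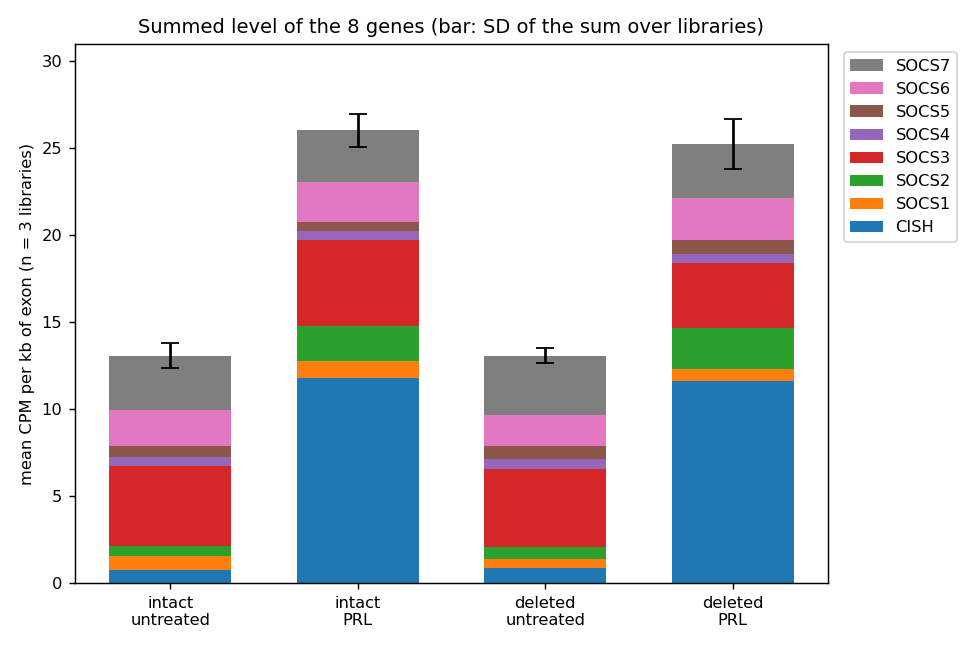
Mean level per kb of exon (y axis, CPM per kb, from 0) of the 8 genes, stacked, in each of the 4 groups; black bars are the SD of the sum over 3 libraries. Stacks reach 13.1 in both untreated groups and 26.0 and 25.2 in the PRL groups, and the CISH segment at the base is the one that widens most.

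None of the 8 genes was called for removal of the I-tail. Averaged over both treatments, edgeR called 0 of 8 members, beside 0.00566% of all genes. In edgeR 0 members had an unadjusted p under 0.05 (smallest 0.187), where 403 of all 17677 genes had one. DESeq2 and limma-voom also called 0 of 8, beside 10 and 2 of all genes. The averaged difference, deleted minus intact, was 0.11 ± 0.16 for CISH (SE, 95% interval −0.23 to 0.46) and 0.26 ± 0.19 for SOCS2 (−0.15 to 0.68). SOCS1 had the widest interval, −1.48 to 0.36 around −0.56, and SOCS5 stood at 0.39 ± 0.28 (−0.21 to 0.99). In untreated cells alone CISH differed by 0.25 ± 0.23 and SOCS2 by 0.33 ± 0.28, and in PRL-treated cells by −0.03 ± 0.22 and 0.19 ± 0.27. Each of these 2 comparisons called 0 of 8 members in edgeR, DESeq2 and limma-voom, beside 0.00566% of all genes called in edgeR. Both had 0 members with an unadjusted p under 0.05 in edgeR. Of all 17677 genes, 148 had one in untreated and 286 in PRL-treated cells. These counts come from fits without the title-run term that is described further below.

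The difference in the PRL response between the genotypes was tested directly as the interaction. It was −0.28 ± 0.32 for CISH (SE, 95% interval −0.97 to 0.41) and −0.14 ± 0.38 for SOCS2 (−0.97 to 0.69), deleted minus intact. The 8 genes lay between −0.36 and 0.36. For the interaction edgeR called 0 of 8 members and 0 of all genes, with 0 members and 127 genes at an unadjusted p under 0.05, and DESeq2 and limma-voom called 0 genes. These intervals do not show equal responses: for both genes a response in deleted cells lower by up to 0.97 on the log2 scale lies inside the 95% interval.

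The sample titles number the libraries from 1 to 12, and each run of 4 numbers holds 1 library of every group, which are libraries 1, 2 and 3 of each group. The labels do not say what a run is. Within the runs, the ratio of PRL to untreated CPM for CISH was 17.1, 16.9 and 14.2 in intact and 17.4, 10.6 and 12.6 in deleted cells. For SOCS2 it was 3.84, 4.24 and 2.96 in intact and 3.10, 4.27 and 2.82 in deleted cells. The higher level with PRL was therefore present in each run for both genes. For SOCS6, which was not called, the ratios were 1.19, 1.04 and 0.979 in intact and 1.51, 1.34 and 1.17 in deleted cells, above 1 in the 3 deleted pairs and in 2 of the 3 intact pairs.

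The levels of called and uncalled members alike were ordered by run, except for SOCS7. CISH was highest in the third run in 4 of 4 groups, and SOCS2 was lowest in the second run in 4 of 4. SOCS4, SOCS5 and SOCS6 were highest in the first run in 4 of 4 groups, and SOCS1 and SOCS3 were lowest there in 4 of 4. SOCS7 had no run that was highest or lowest in all groups: it was highest in the first run in 3 of 4 and in the second in 1. SOCS1 ranged over 0.510 to 0.842 CPM in the first run, 1.33 to 2.90 in the second and 0.704 to 1.78 in the third. SOCS6 ranged over 12.3 to 18.5, 8.18 to 10.9 and 12.1 to 14.1 CPM. Both genes had no overlap between the first and second runs. Detected genes also differed by run, at 24477 to 25200 in the first, 19073 to 23119 in the second and 21761 to 23895 in the third. The part of the runs in the levels was not tested.

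**Figure D4:**
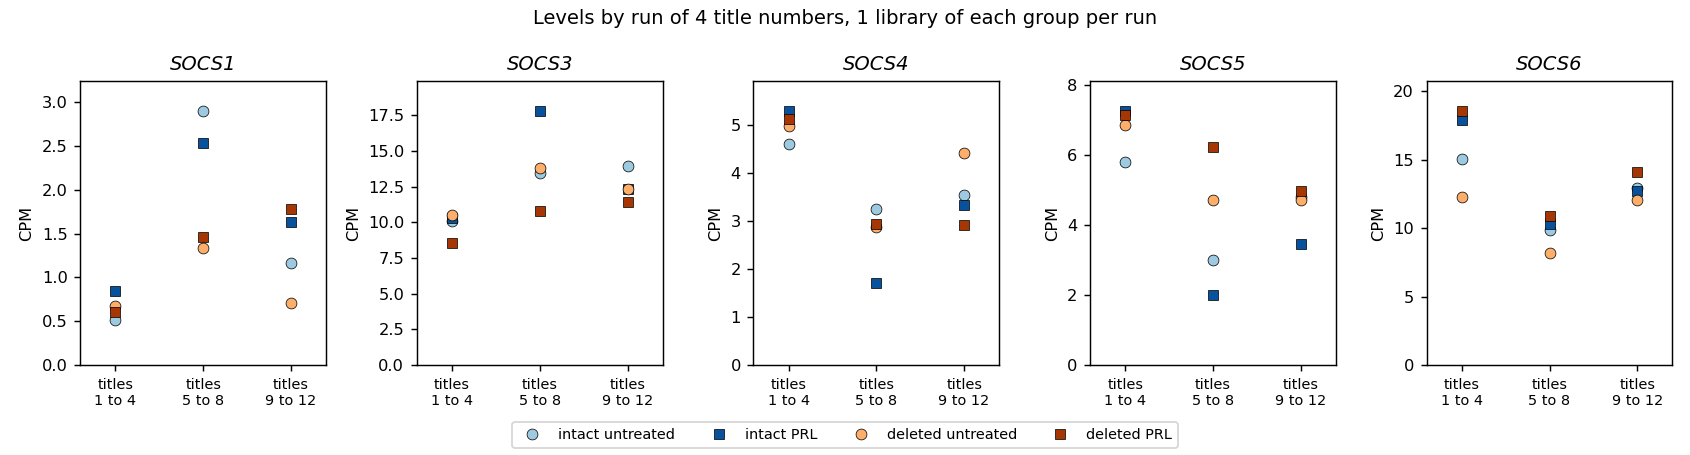
Levels in CPM (y axis, linear, from 0) of SOCS1, SOCS3, SOCS4, SOCS5 and SOCS6 by run of 4 title numbers (x axis); each point is 1 library, coloured by group. In the first run SOCS1 and SOCS3 sit low and SOCS4, SOCS5 and SOCS6 sit high in all 4 groups.

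Several members share sequence with other genes, and neither the labels nor the processing notes say whether reads were counted by strand. The start of CISH overlaps 218 bases of exon of MAPKAPK3, a stress kinase gene on the opposite strand, and SOCS2 overlaps 277 bases of exon of the antisense gene SOCS2-AS1. MAPKAPK3 was at 75.9 to 179.5 CPM, with an averaged difference for PRL of 0.28 ± 0.21 (SE, adjusted p = 0.98). SOCS2-AS1 had only 28 to 109 counts a library, against 96 to 820 for SOCS2, with a difference of 0.71 ± 0.24 (adjusted p = 0.94). SOCS3-DT, a noncoding gene read away from SOCS3 and 376 bases from it, had 7 to 34 counts and a difference of 0.90 ± 0.40 (adjusted p = 0.98). SOCS1 lies whole within RMI2 on the opposite strand without sharing exon, and SOCS5 shares 160 bases of exon with LINC01118 on its own strand. MAPK1IP1L and WDHD1 lie 2143 and 125 bases from SOCS4. Of the 8 annotated pseudogenes of the family, SOCS5P4 had 48 counts over all libraries, SOCS5P3 had 6 and the others 0.

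The proteins through which the family works were read from lists, chosen with earlier results of these data known. None of the 10 parts of the SOCS-box ubiquitin ligase was called for the averaged PRL effect (median −0.06 on the log2 scale). ELOB, an elongin of that complex, differed by 0.25, and RNF7, its RING protein, by −0.14. Of other genes for SOCS-box proteins, 0 of 20 tested were called (median 0.02). SPSB1, which targets the inducible nitric oxide synthase, was at 31.1 to 52.5 CPM without and 58.4 to 93.9 CPM with PRL. Its treated libraries all lay above its untreated ones, as for 0.441% of all genes. Its difference of 0.78 ± 0.16 (SE) had an adjusted p of 0.152. RAB40A, a small GTPase with a SOCS box, stood at −1.58 ± 0.64 (adjusted p = 0.98), on group means of only 0.0729 to 0.446 CPM. The lists compare with a median of −0.02 over all genes.

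Upstream of the family, 0 of 10 JAK and STAT genes were called (median −0.07), with TYK2, a JAK kinase, at 0.22 and STAT4 at −1.01 ± 0.90. STAT4 had group means of only 0.0685 to 0.270 CPM (adjusted p = 0.98). None of 18 tested cytokine receptor chains was called (median 0.00). IL7R, the IL-7 receptor chain, was at 1.19 ± 0.35 (adjusted p = 0.555) and IL4R, the IL-4 receptor chain, at 0.64 ± 0.22 (adjusted p = 0.94). None of 12 other brakes on the pathway was called either (median −0.05), with the ubiquitin ligase CBLB at −0.41 ± 0.21 and the phosphatase PTPN2 at −0.27 ± 0.18. Over these 5 lists edgeR called 0 of 70 genes, with 5 at an unadjusted p under 0.05, where 673 of all 17677 genes had one. DESeq2 called 1 of the 70, SPSB1, and limma-voom called 0.

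Among 11 tested tyrosine kinase signalling genes whose proteins SOCS proteins bind, 1 rose and 0 fell (median 0.03). That gene was IRS2, an adaptor of insulin receptor signalling, which was at 43.9 to 74.2 CPM untreated and 121 to 255 CPM with PRL. It rose by 1.68 ± 0.20 on the log2 scale (SE, adjusted p = 0.00383), and the insulin receptor gene INSR stood at −0.19 ± 0.16. Among 9 tested other STAT5 targets, 0 rose and 1 fell (median 0.03). BCL6, a transcriptional repressor that STAT5 is known to repress, was at 26.9 to 41.3 CPM untreated and 3.56 to 12.5 CPM with PRL. It fell by 2.15 ± 0.27 on the log2 scale (adjusted p = 0.00477), the opposite direction from CISH and SOCS2, and IRF1, a transcription factor, stood at 0.30 ± 0.12. For the averaged I-tail deletion effect 0 of 90 genes on the 7 lists were called in edgeR, DESeq2 or limma-voom, with 1 at an unadjusted p under 0.05 in edgeR, where 403 of all 17677 genes had one.

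The genes whose pattern over the 12 libraries came closest to each called member were found by the root-mean-square difference in centred log2 CPM, among 12949 genes averaging at least 1 CPM. For SOCS2, whose own spread on this scale was 0.951, they were SOWAHC at 0.239, JUN at 0.263, IRS2 at 0.323, LBH at 0.364 and TRIB1 at 0.397. The averaged PRL difference was 1.52 ± 0.14 (SE) for SOWAHC, 1.77 ± 0.15 for the transcription factor gene JUN and 1.09 ± 0.15 for TRIB1, a pseudokinase gene, and each of these rose. LBH, at 1.84 ± 0.33, had an adjusted p of 0.0592. For CISH, whose own spread was 1.94, no gene came as close. APOL4, an apolipoprotein L gene, stood nearest at 0.960, followed by JUN at 1.07, SOCS2 at 1.10, LBH at 1.18 and SOWAHC at 1.19. APOL4 rose by 3.75 ± 0.46 on the log2 scale (adjusted p = 0.00383). All these genes were picked for likeness to a member already called for PRL, in the same libraries. Their own differences with PRL follow from that choice and are no separate support.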

How the data were processed

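RNA from 12 samples of MCF10AT cells was sequenced after polyA selection. The authors deposited 1 table of raw read counts per gene, made with STAR 2.7.9a, featureCounts of the Subread package and FastQC on GRCh38, per the submitters' processing notes; neither strand setting nor annotation release is stated there. Of 62703 entries, 1 held no values and 62702 were used, and 62696 matched a symbol. Library totals were 36120808 to 57324865 counts.

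Genes were filtered with filterByExpr, scaled by TMM and tested with edgeR 4.0.16 (R 4.3.3) by the quasi-likelihood F test, with 1 mean per group over 12 libraries. The p-values were adjusted by Benjamini-Hochberg over all 17677 genes in each of 7 contrasts. Standard errors and 95% intervals come from the F statistic and its degrees of freedom. The averaged effects weigh both groups of a kind equally. Coordinates and union exon lengths come from GENCODE 29 and promoter windows from RefSeq (GRCh38.p14). CPM per kb counts the exons of all isoforms, so it understates a gene expressed from short ones. The procedure was tested on simulated data. Alternatives were RLE scaling, library size alone, no filter, DESeq2 1.42.0, limma-voom (limma 3.58.1), the compared groups alone, a term for title runs, and each library left out.

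The members and lists were chosen with earlier results of these data known. Named genes are the 8 members, list genes called in any contrast or otherwise the 2 with the smallest unadjusted p for the averaged PRL effect, genes next to a member, and the 5 closest in pattern to each called member.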

Additional observations from a re-analysis of the deposited data

How the results depend on the processing

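Of 476 member values under the alternatives, 444 kept direction and side of the threshold, 0 lost a call, 9 gained one and 23 changed sign. CISH stayed called for the averaged PRL effect in 18 of 18 alternatives (3.74 to 3.96 on the log2 scale), as did SOCS2 (1.67 to 1.86, largest adjusted p 0.0357). The SOCS2 difference in intact cells passed in 5 of 19 alternatives. It passed with RLE scaling (1.86), no filter (1.85), DESeq2 (1.86), a title-run term (1.86, adjusted p = 7.15e-05) and without the deleted untreated library 2 (1.85, adjusted p = 0.0448). Over the leave-outs it ranged from 1.63 to 1.99. In deleted cells it passed in 4 of 19: no filter (1.71), DESeq2 (1.72), the compared groups alone (1.71) and a title-run term (1.74, adjusted p = 1.09e-04); the cause was not tested.

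Signs changed only for values not called. With library size alone SOCS5 stood at -0.038 for averaged PRL, SOCS6 at 0.0017 for averaged deletion and CISH at 0.080 for deletion in PRL-treated cells, and limma-voom gave SOCS5 -0.018. Leaving out libraries gave averaged PRL ranges of -0.20 to 0.0067 for SOCS3, -0.37 to 0.016 for SOCS4 and -0.28 to 0.21 for SOCS5. It gave averaged deletion ranges of -0.081 to 0.32 for SOCS4 and -0.17 to 0.062 for SOCS6, -0.14 to 0.075 for CISH deletion in PRL-treated cells, and -0.35 to 0.075 for the SOCS2 interaction.

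Counts over all genes moved more; the cause was not tested. Averaged PRL calls, 21 as reported, were 124 without a filter, 91 in DESeq2, 198 with the run term and 11 to 27 over the leave-outs, with 12 and 11 without the deleted untreated libraries 1 and 2. Intact PRL calls, 3, became 1 by library size, 46 without a filter, 22 in DESeq2, 1 for the compared groups, 62 with the run term and 1 to 4 over the leave-outs. Deleted PRL calls, 3, became 1, 33, 20, 11, 57 and 1 to 5 in that order. Averaged deletion calls, 1, became 33 without a filter, 10 in DESeq2, 2 in limma-voom, 11 with the run term and 1 to 2 over the leave-outs. Untreated deletion calls, 1, became 0 by library size, 6 without a filter, 4 in DESeq2, 0 for the compared groups and 0 to 1 over the leave-outs. Deletion calls in PRL-treated cells, 1, became 0, 4, 2, 0 and 0 to 1 in that order, and 0 in limma-voom. The interaction had 0 calls throughout.

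The run term is a replicate block on libraries of the same title run, a pairing the labels do not state: 16 of 18 same-run pairs had a correlation of deviations above 0.1, the lowest 0.0966, and 12 of 12 libraries correlated best with their own run. With it SOCS6 stood at 0.25 for averaged PRL (95% interval 0.06 to 0.45), still not called (adjusted p = 0.245). For averaged deletion SOCS2 stood at 0.27 (0.02 to 0.52) and SOCS5 at 0.46 (0.08 to 0.85), not called (adjusted p = 0.340 and 0.330). For deletion in PRL-treated cells SOCS3 stood at -0.37 (-0.67 to -0.07) and SOCS5 at 0.65 (0.10 to 1.20), not called (adjusted p = 0.630 for both). The other members' deletion intervals in these comparisons spanned 0. The run term also called SPSB1 (0.79) and IL4R (0.64) for averaged PRL. The compared groups alone give no value for averages or the interaction.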

Other observations

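IL7R, the IL-7 receptor chain, was the cytokine receptor gene on the lists with the smallest unadjusted p for averaged PRL. It was at 0.881, 0.662 and 0.937 CPM in intact untreated libraries 1 to 3 and at 2.29, 3.83 and 2.17 CPM in intact PRL libraries. In deleted cells it was at 0.739, 0.507 and 1.38 CPM untreated and at 2.27, 0.543 and 1.31 CPM with PRL. In intact cells the 3 PRL libraries lay above the 3 untreated ones, as for 2.61% of all genes. The groups overlapped in deleted cells, where 1 library stood high with PRL. The interaction was -1.07 ± 0.69 on the log2 scale (SE, edgeR adjusted p = 0.99999), so a difference in response was not shown.

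The noncoding neighbours of the feedback genes had few counts and varied by title run. SOCS3-DT was at 0.209, 0.193 and 0.260 CPM in intact untreated libraries and at 0.734, 0.478 and 0.268 CPM in intact PRL libraries. In deleted cells it was at 0.323, 0.148 and 0.318 CPM untreated and at 0.467, 0.457 and 0.317 CPM with PRL. The treated library was thus the higher one in the first and second runs and level with the untreated one in the third, while SOCS3 itself overlapped between treatments. SOCS2-AS1 was at 0.772 to 1.45 CPM without PRL and 1.17 to 2.35 CPM with it, and in the third run of the deleted cells the treated library was the lower one (1.45 untreated, 1.29 with PRL). Neither noncoding gene passed the test.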
